A study of Mus musculus with 10 samples.

Results

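The genes described here encode the semaphorins, their plexin and neuropilin receptors, the ephrins and their Eph receptors, followed in spinal cord between 4 and 8 weeks of age. Members were taken by symbol: every gene whose symbol starts with Sema or Plxn followed by a letter or number, Nrp1 and Nrp2, and every Epha, Ephb, Efna or Efnb gene followed by a number only. That rule took 54 of the 26301 genes in the deposited tables. By role they were 7 secreted semaphorins (class 3), 13 membrane-bound semaphorins (classes 4 to 7), 9 plexins, 2 neuropilins, 5 ephrin-A and 3 ephrin-B ligands, 9 EphA and 5 EphB receptors, and Plxna4os1, an RNA antisense to Plxna4. The study sequenced total RNA of spinal cords from C57BL/6 mice, an inbred strain, that carried no labelled allele and received no labelled treatment. Groups were male and female mice at 4 weeks (2 libraries each) and at 8 weeks (3 libraries each), 10 libraries in all. The design text names only the ages, so the question read from it is what differs in the cord between 4 and 8 weeks. Nothing in the labels says that replicates came from separate animals, so the p-values reflect how much these libraries scatter, and that scatter may be technical.

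Semaphorins are ligands with a shared sema domain that steer growing axons and migrating cells, and most signal through plexins, whose inner part switches off small GTPases of the Ras and Rap type. Class 3 semaphorins are secreted and mostly need a neuropilin to bind, whereas the other classes sit in the membrane. Ephrins are held on the cell surface, the A class by a lipid anchor and the B class by a membrane span, and bind Eph receptor tyrosine kinases on the neighbouring cell, with signals that can run in both directions. In the spinal cord these families are known for guiding motor, sensory and corticospinal axons before birth and shortly after, and several are made by oligodendrocytes, the glia that form myelin.

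A library held between 8453559 and 11594610 counts, of which the members took between 0.237% and 0.282%. Levels below are CPM, counts relative to the library total, scaled by TMM, a normalization for library composition, and a difference is the log2 fold change of 8 against 4 weeks with its standard error (SE). Marker genes of neurons, astrocytes and oligodendrocytes were abundant in every library, with summed levels of 8909 to 10417 CPM over 14 neuronal genes, 8418 to 10363 CPM over 10 astrocyte genes and 41890 to 69698 CPM over 15 mature oligodendrocyte and myelin genes. The libraries also held RNA of tissues outside the cord. Summed skeletal muscle transcripts lay between 501 and 2030 CPM at 4 weeks, highest in male library 1, and between 40.7 and 154 CPM at 8 weeks. Lung epithelium transcripts reached 895 and 104 CPM in male 8-week libraries 2 and 3 and at most 10.8 CPM elsewhere.

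Of the 54 members 52 passed the filter on low counts and were tested. Efna4, an ephrin-A ligand, held 1 to 9 counts per library and Plxna4os1 held 1 to 6, and neither was tested. To compare members with each other, CPM were divided by the exon length of the gene in GENCODE M21, which is approximate because the reads were counted on another build. Efnb3, the ephrin that forms a barrier to corticospinal axons at the cord midline, had the highest level per exon length, 123 ± 13.7 CPM per kb (SD, n = 10). Next came Sema7a, a semaphorin with a lipid anchor, at 41.4 ± 3.31 CPM per kb, and Sema4d, a ligand of plexin B1, at 23.2 ± 5.06 CPM per kb. Efnb3 lay above Sema7a and Sema7a above Sema4d in all libraries, and so did Sema6d above Plxnb2 further down. The other 50 of 53 neighbouring pairs in the order had overlapping ranges, so their order is not resolved. Sema6b, Ephb6, Plxnb3 and Plxnb1 followed with overlapping ranges between 13.0 and 22.9 CPM per kb. The EphA receptors were lower, with Epha4 the highest of the 9 at 4.52 CPM per kb, and the tested members with the lowest levels were Epha2 at 0.35 ± 0.12 and Epha3 at 0.19 ± 0.05 CPM per kb.

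**Figure D1:**
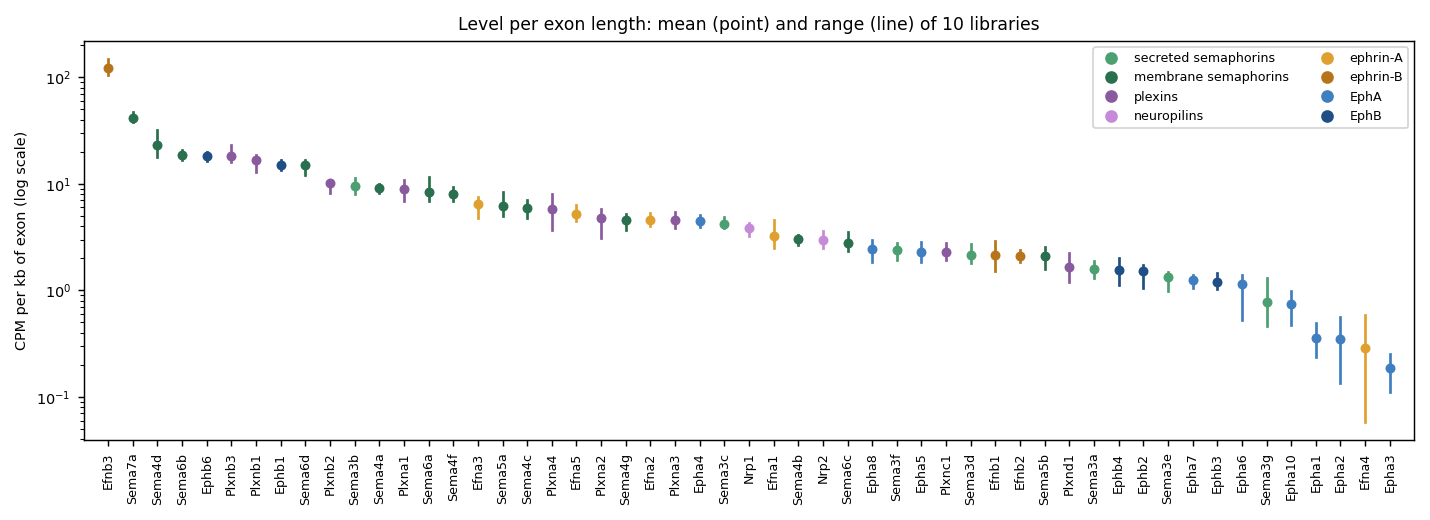
Level per exon length of 53 members in order of their mean, on a log axis in CPM per kb of exon, without the antisense RNA. Points are means and lines the range over all 10 libraries, and colours give the role. Efnb3 stands above the rest at 123 CPM per kb, and membrane semaphorins, plexins, Ephb6 and Ephb1 fill the upper ranks. The other EphB receptors, Ephb4, Ephb2 and Ephb3, hold ranks 42, 43 and 46. Among the lowest 8 are 5 of the EphA receptors and Ephb3.

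Between 4 and 8 weeks 2 members fell and none passed the test in the other direction. Both are membrane semaphorins, Sema4d and Sema6a. The quasi-likelihood test of edgeR, fitted on all 15540 tested genes with sex as a covariate and adjusted over all of them, called 2 of the 52 members (3.85%), beside 6.62% of all genes. At an unadjusted p under 0.05 there were 10 members, 4 higher and 6 lower at 8 weeks, which is 19.2% beside 21.0% of all genes. The log2 difference was positive for 31 of 52, with a median of 0.06 beside 0.01 over all genes. When library 1 of the 4-week males was left out that median was 0.02, when library 1 of the 4-week females was left out 0.03, and it was 0.04 without library 3 of either 8-week group and 0.09 without male 4-week library 2. It was −0.03 without both 4-week libraries numbered 1, 0.13 without both numbered 2 and −0.21 with a skeletal muscle score as a covariate, so its sign depends on these choices. Differences were bounded for most members: the 95% interval lay within 1.5-fold in either direction for 43 of 52 and within 2-fold for 51, the exception being Sema3g.

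**Figure D2:**
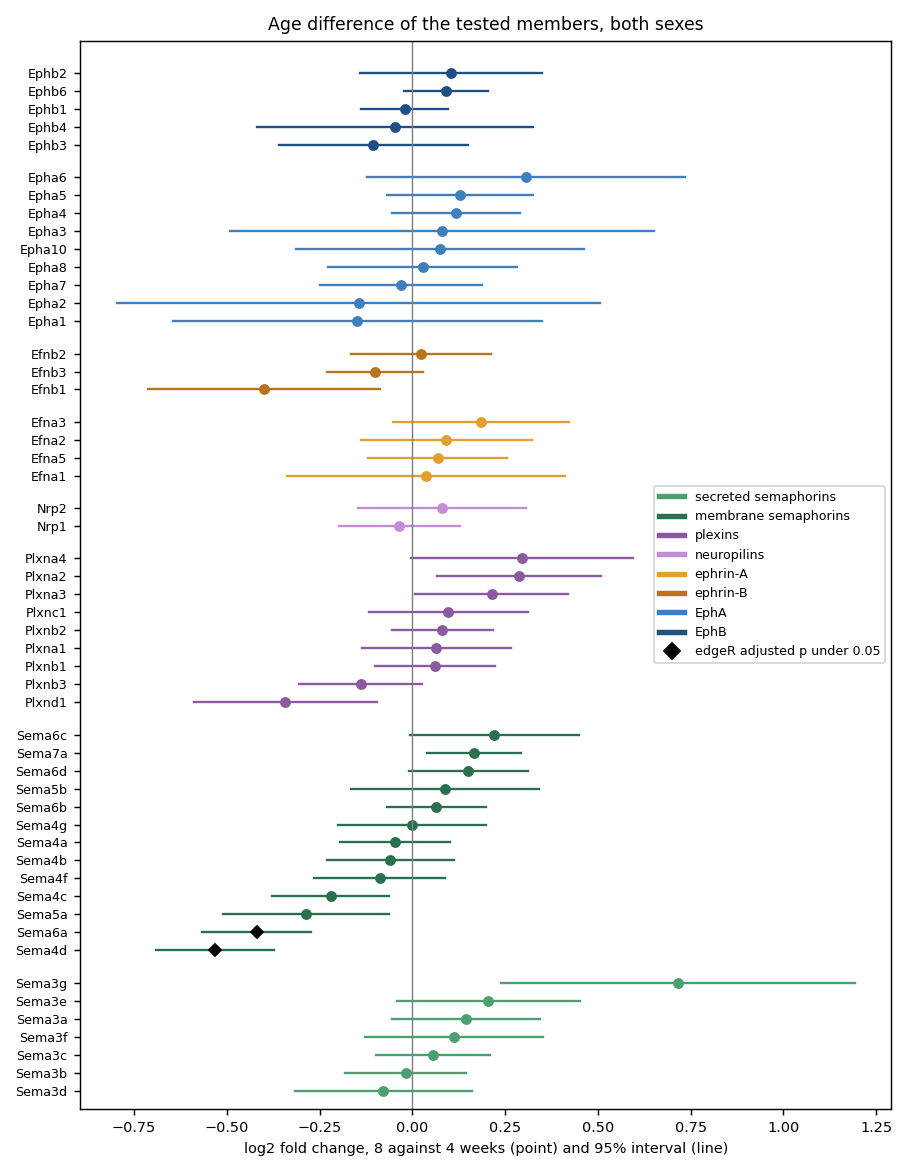
Log2 fold change of 8 against 4 weeks for the 52 tested members, with points for the estimate, lines for its 95% interval and colours for the role. Black diamonds mark Sema4d and Sema6a, whose edgeR adjusted p was under 0.05, and the other 50 members are drawn as dots.

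The membrane semaphorins were the class with called members, 2 of 13, beside 6.62% of all genes. An unadjusted p under 0.05 in edgeR was found for 5 of the 13, beside 21.0% of all genes. Whether the class as a whole differs from other genes was not tested. Sema4d is made by oligodendrocytes in the central nervous system, signals through plexins B1 and B2 and, on immune cells, through CD72, and is known as an inhibitor of oligodendrocyte maturation. At 4 weeks it stood at 185 and 248 CPM in male libraries 1 and 2 and at 218 and 222 CPM in the female ones. At 8 weeks its level was 137, 143 and 142 CPM in male libraries and 161, 172 and 154 CPM in female ones. All 6 of the 8-week libraries therefore lay below all 4 of the 4-week libraries, in males as in females. From 218 ± 25.8 CPM (SD, n = 4) Sema4d fell to 151 ± 13.3 CPM (SD, n = 6). It fell by 30.8%, or by 0.53 on the log2 scale (SE 0.07, edgeR adjusted p = 0.000525). Whether a lower level in such tissue RNA comes from fewer cells of a type or from less RNA per cell cannot be told apart, here and in all results that follow.

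Sema6a, a membrane semaphorin that binds plexins A2 and A4 and is also made by cells of the oligodendrocyte lineage, moved the same way. It stood at 70.8 and 89.1 CPM in male and at 89.2 and 101 CPM in female 4-week libraries. At 8 weeks the values were 63.4, 61.0 and 61.1 CPM in males and 67.1, 67.2 and 72.4 CPM in females. Here 5 of 6 libraries were below all 4-week libraries, and female 8-week library 3 overlapped with male 4-week library 1. Sema6a fell by 25.2%, from 87.5 ± 12.4 to 65.4 ± 4.42 CPM, or by 0.42 on the log2 scale (SE 0.07, edgeR adjusted p = 0.00180). Both calls held in DESeq2 and limma-voom, without both male 4-week libraries, and without male 8-week libraries 2 and 3, the ones with lung RNA. They also held when any 1 library was left out, with edgeR adjusted p between 0.000172 and 0.00234 for Sema4d and between 0.000203 and 0.0119 for Sema6a. With the skeletal muscle score added as a covariate the differences were −0.75 (SE 0.17, edgeR adjusted p = 0.0715) for Sema4d and −0.75 (SE 0.14, edgeR adjusted p = 0.0375) for Sema6a, so the call of Sema4d ended. That score moves with age, and it left 41 called genes in the whole table and raised the members' median SE from 0.10 to 0.21.

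Many oligodendrocyte genes were lower at 8 weeks too, and so were many genes of other lists. Of 15 mature oligodendrocyte and myelin genes 10 were lower at 8 weeks by the same test and 0 higher, and their summed level was 65768 to 69698 CPM at 4 weeks and 41890 to 50340 CPM at 8 weeks. Among 12 genes of newly forming oligodendrocytes 9 were lower and 1 higher, with summed levels of 1399 to 1519 and 1355 to 1504 CPM that overlapped. The 10 genes of oligodendrocyte precursors included 4 that were lower, and their summed level went from 1239 to 1415 CPM to 1091 to 1181 CPM. None of these markers was at 0 in all libraries. All 12 skeletal muscle genes and 7 of 7 tested fat cell genes were lower too, fat with summed levels of 32.2 to 284 CPM at 4 weeks and 2.81 to 45.8 CPM at 8 weeks. So were 11 of 12 blood and marrow genes, with summed levels of 624 to 1348 CPM at 4 weeks and 469 to 561 CPM at 8 weeks. Lower as well were 9 of 11 tested cell division genes, 8 of 11 of cartilage and bone and 8 of 10 of adrenal gland. The summed adrenal level overlapped between ages, at 300 to 445 CPM at 4 weeks and 321 to 367 CPM at 8 weeks. Meningeal fibroblast and collagen matrix had 5 of 12 genes lower and 1 higher, with overlapping sums of 1624 to 2581 and 1200 to 2310 CPM. Of Schwann cell genes 3 of 10 were lower, and of pericyte genes 2 of 8. Of 14 neuron genes 0 were lower and 1 was higher, and of 10 astrocyte genes 1 was lower and 0 higher. The part that any of these lists has in the fall of Sema4d and Sema6a was not tested.

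The other 11 membrane semaphorins did not pass. Sema4c, a ligand of plexin B2, had 30.1, 27.0, 29.1 and 32.3 CPM at 4 weeks and from 21.7 to 28.9 CPM (median 25.5) at 8 weeks, a difference of −0.22 (SE 0.07, edgeR adjusted p = 0.0949). Sema5a, which binds plexin B3 and is known from oligodendrocytes of the optic nerve, had a difference of −0.29 (SE 0.10, edgeR adjusted p = 0.125). Its 4-week libraries disagreed with each other, at 107 and 112 CPM in those numbered 1 and 158 and 145 CPM in those numbered 2. Sema7a, a ligand of plexin C1 and of integrins, was even at 4 weeks, from 125 to 132 CPM, and reached 126 to 155 CPM (median 144) at 8 weeks, with 5 of 6 libraries above all 4-week libraries and a difference of 0.17 (SE 0.06, edgeR adjusted p = 0.116).

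The 3 starts of Sema4d that RefSeq's table for GRCm38.p6 lists are shown here because Sema4d had the lowest p of all members, and the start of Plxnb1 because it encodes its receptor. Each window runs from 250 bases before to 50 bases after the start. Capitals mark the SOX cores ACAAAG and ACAATG on either strand, searched because SOX10 acts in the oligodendrocyte lineage. The windows of Sema4d lie on the minus strand at chr13:51739397-51739696, chr13:51748761-51749060 and chr13:51756634-51756933, and that of Plxnb1 on the plus strand at chr9:109095186-109095485.
Sema4d, window 1: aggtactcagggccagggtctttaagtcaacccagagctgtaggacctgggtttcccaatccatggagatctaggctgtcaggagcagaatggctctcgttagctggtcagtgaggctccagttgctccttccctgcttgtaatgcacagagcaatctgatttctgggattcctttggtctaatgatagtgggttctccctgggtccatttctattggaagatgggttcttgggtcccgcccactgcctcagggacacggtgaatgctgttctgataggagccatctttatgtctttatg
Sema4d, window 2: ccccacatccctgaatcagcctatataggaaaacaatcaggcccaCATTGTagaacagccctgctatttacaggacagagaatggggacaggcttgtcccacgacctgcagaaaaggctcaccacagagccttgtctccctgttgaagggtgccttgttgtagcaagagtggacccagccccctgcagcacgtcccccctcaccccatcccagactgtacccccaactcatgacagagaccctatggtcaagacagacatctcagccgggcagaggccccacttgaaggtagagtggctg
Sema4d, window 3: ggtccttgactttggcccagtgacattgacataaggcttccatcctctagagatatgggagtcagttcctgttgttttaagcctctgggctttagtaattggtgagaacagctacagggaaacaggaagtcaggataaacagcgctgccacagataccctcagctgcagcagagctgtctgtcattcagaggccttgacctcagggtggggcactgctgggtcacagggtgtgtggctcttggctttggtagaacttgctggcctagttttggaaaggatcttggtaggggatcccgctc
Plxnb1: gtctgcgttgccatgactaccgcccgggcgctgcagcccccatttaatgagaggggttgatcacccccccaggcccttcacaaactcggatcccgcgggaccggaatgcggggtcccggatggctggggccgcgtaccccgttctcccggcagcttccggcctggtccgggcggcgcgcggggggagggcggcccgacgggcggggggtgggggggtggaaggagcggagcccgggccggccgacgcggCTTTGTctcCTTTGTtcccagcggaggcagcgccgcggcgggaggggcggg
The Sema4d windows hold 3, 3 and 2 CG pairs, and the Plxnb1 window 36. Window 2 of Sema4d has 1 match to ACAATG, and window 1 has 1 GC box (GGGCGG, either strand). The Plxnb1 window has 2 matches to ACAAAG and 5 GC boxes. Over all members 47 had at least 1 window in the table, 61 windows in all. Either SOX core was found in 14 of them (23.0%), beside 28.6% of all 32851 windows. A GC box was found in 46 (75.4%), beside 35.7% of all windows. These matches describe the letters only, and which start the cord uses cannot be read from counts per gene.

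None of the 7 secreted semaphorins passed the test, beside 6.62% of all genes, and their median difference was 0.11. Sema3g, a neuropilin-2 ligand known from endothelial cells, had the largest estimate of any member. It was scarce, with 22 to 64 counts per library, and stood at 3.11, 2.09, 2.88 and 2.20 CPM at 4 weeks and from 2.68 to 5.98 CPM (median 4.21) at 8 weeks. All 8-week libraries but female library 1 were above all 4-week libraries, and the difference was 0.71 (SE 0.22, edgeR adjusted p = 0.0740), with a 95% interval from 0.24 to 1.19. Its highest values, 4.96 and 5.98 CPM, were in male 8-week libraries 2 and 3, the ones with lung RNA. Of 10 endothelial marker genes 1 was higher at 8 weeks, and their summed level overlapped between ages, at 118 to 179 and 116 to 196 CPM. The part of lung RNA or of endothelial cells in the Sema3g values was not tested. Sema3e, which binds plexin D1 without a neuropilin, had 9.69 and 12.9 CPM in male and 9.25 and 13.2 CPM in female 4-week libraries, against 11.9 to 13.8 CPM (median 13.3) at 8 weeks. Both 4-week libraries numbered 1 lay below the 8-week range and both numbered 2 inside it, and the difference was 0.20 (SE 0.12, edgeR adjusted p = 0.340). Sema3d had the lowest estimate of the class, −0.08.

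None of the 9 plexins passed, beside 6.62% of all genes, with 7 of 9 estimates positive and a median of 0.08. Plxnd1, the receptor of Sema3e that is best known from blood vessels, stood at 16.4, 13.2, 12.1 and 14.0 CPM at 4 weeks and from 8.68 to 14.6 CPM (median 10.5) at 8 weeks. Male 8-week library 3 lay in the 4-week range and the other 5 below it, for a difference of −0.34 (SE 0.12, edgeR adjusted p = 0.0983). Plxna2, a receptor of Sema6a and part of class 3 receptors, was at 53.7 and 77.6 CPM in male and 69.0 and 92.0 CPM in female 4-week libraries, and from 74.1 to 100.3 CPM (median 91.9) at 8 weeks. The ages overlapped, and the difference was 0.29 (SE 0.10, edgeR adjusted p = 0.119). Plxnb1, the main receptor of Sema4d, went from 157 ± 23.7 to 163 ± 7.18 CPM, and its difference was 0.06 with an edgeR 95% interval from −0.10 to 0.22. Plxnb3, the plexin of oligodendrocytes and the receptor of Sema5a, had a difference of −0.14 (SE 0.08, edgeR adjusted p = 0.331), from 125 ± 16.9 to 114 ± 5.80 CPM.

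Both neuropilins, the co-receptors of class 3 semaphorins, had small estimates and did not pass. Nrp1 stood at 39.8, 42.4, 31.6 and 37.7 CPM at 4 weeks and from 35.0 to 38.4 CPM (median 37.0) at 8 weeks, so that the 8-week values lie inside the 4-week range. Its difference was −0.04, with an edgeR 95% interval from −0.20 to 0.13. Nrp2 had 29.8, 39.5, 29.4 and 36.6 CPM at 4 weeks and from 31.4 to 42.5 CPM (median 35.6) at 8 weeks, a difference of 0.08 with an interval from −0.15 to 0.31.

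**Figure D3:**
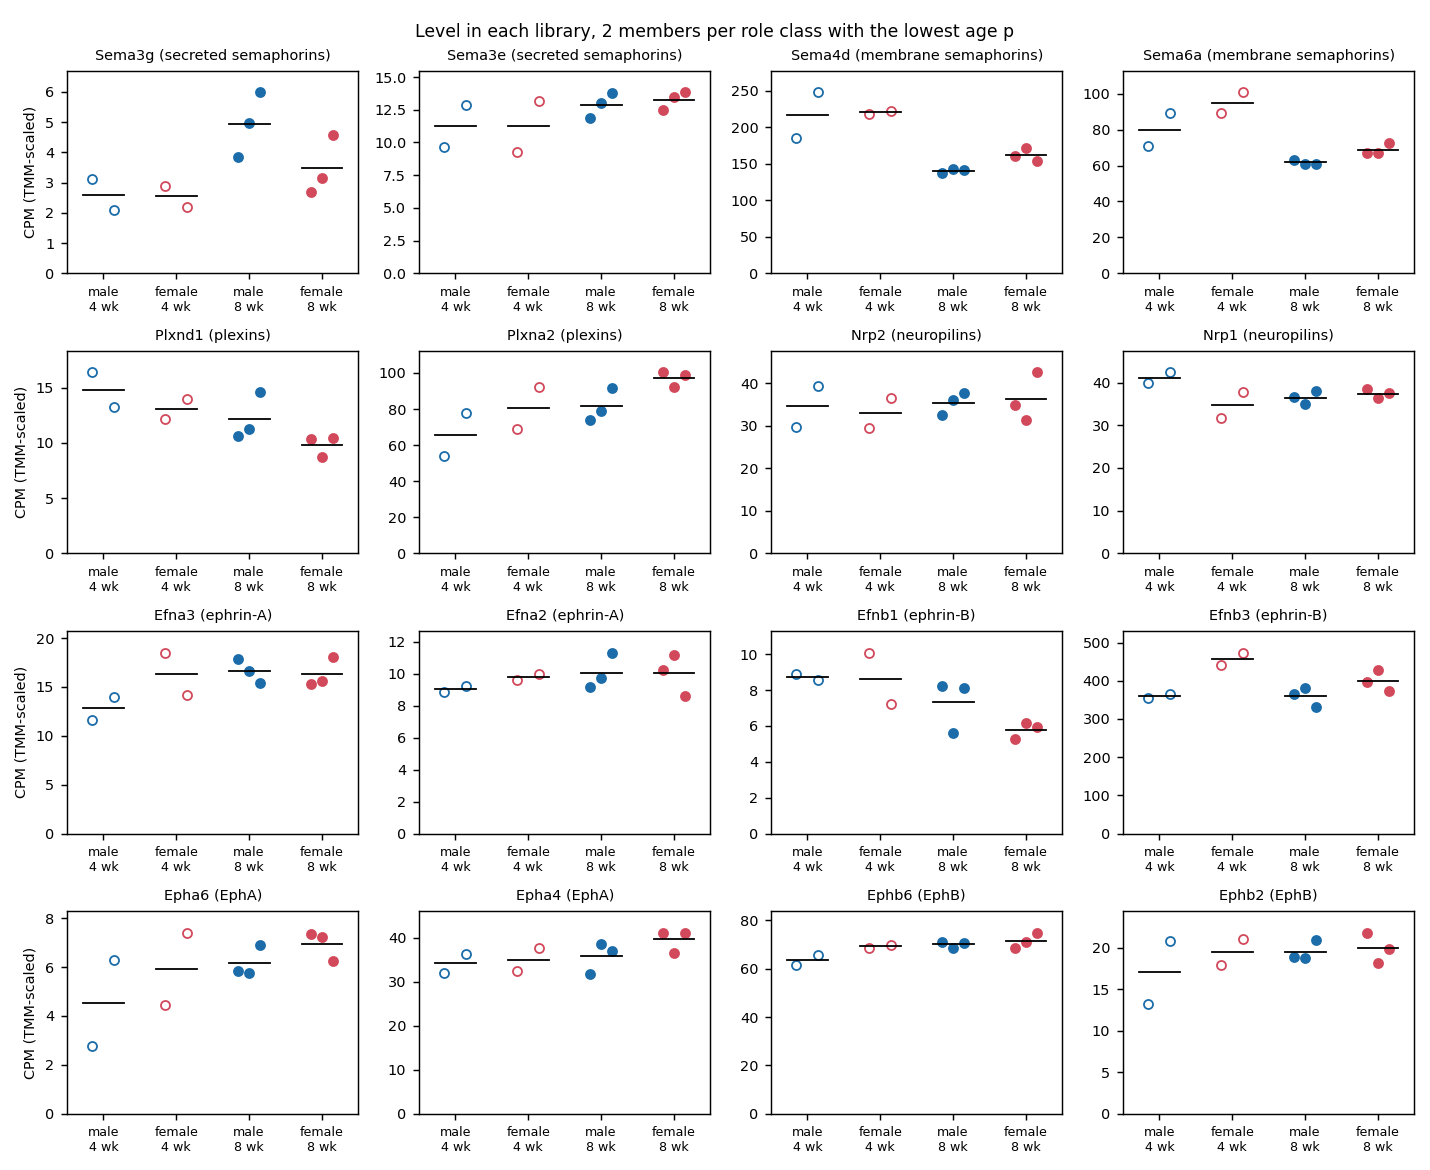
TMM-scaled CPM in each library for the 2 members of each role class with the lowest age p. Open circles are 4-week and filled circles 8-week libraries, blue male and red female, and black lines are group means. Sema4d shows no overlap between the ages, Sema6a an overlap of 1 library, and the other 14 members overlap between the ages.

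Among the ephrin ligands 0 of 4 tested A and 0 of 3 B genes passed, beside 6.62% of all genes. The A ligands had a median difference of 0.08. Efna3 stood at 11.6, 13.9, 18.5 and 14.2 CPM at 4 weeks and from 15.3 to 18.1 CPM (median 16.1) at 8 weeks, inside the 4-week range, and Efna2 from 8.88 to 10 CPM at 4 weeks and from 8.63 to 11.3 CPM (median 9.96). The edgeR differences were 0.18 (SE 0.11) and 0.09 (SE 0.11). Of the B ligands, Efnb1, whose gene is on the X chromosome, was scarce, with 8.88, 8.54, 10.1 and 7.2 CPM at 4 weeks and from 5.27 to 8.22 CPM (median 6.05) at 8 weeks. In 4 of 6 libraries it was below all 4-week libraries, and the difference was −0.40 (SE 0.15, edgeR adjusted p = 0.124). Efnb3 stood at 355 and 367 CPM in male and 441 and 474 CPM in female 4-week libraries, and from 332 to 427 CPM (median 377) at 8 weeks. Both female 4-week libraries lay above both male ones, and the age difference was −0.10 (SE 0.06, edgeR adjusted p = 0.368).

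None of the 9 EphA and 5 EphB receptors had an unadjusted p under 0.05 for age in edgeR, beside 21.0% of all genes. Their median differences were 0.07 and −0.02. Epha6 stood at 2.77 and 6.27 CPM in male and 4.45 and 7.40 CPM in female 4-week libraries and from 5.73 to 7.33 CPM (median 6.58) at 8 weeks, a wide spread at 4 weeks and a difference of 0.31 (SE 0.20). Epha4, which binds both ephrin classes and carries the Efnb3 signal in corticospinal and motor circuits, had 32.1, 36.2, 32.3 and 37.7 CPM at 4 weeks and from 31.6 to 41.1 CPM (median 37.8) at 8 weeks. Its difference of 0.12 had an edgeR 95% interval from −0.05 to 0.29. Ephb6, a receptor without kinase activity, varied little, with 61.5 and 65.7 CPM in male and 68.7 and 70 CPM in female 4-week libraries and from 68.7 to 74.9 CPM (median 70.7) at 8 weeks, a difference of 0.09 (SE 0.05). Ephb2, a receptor of B ephrins, had 13.3, 20.8, 17.9 and 21.0 CPM at 4 weeks and from 18.1 to 21.8 CPM (median 19.3) at 8 weeks, a difference of 0.10 (SE 0.11), and 1 of 6 libraries lay above all 4-week libraries.

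Many members shared a pattern across libraries that age and sex do not describe. In male 4-week library 1 and in male 8-week library 1, 37 of 52 members were below their own mean over the 10 libraries, whereas 49.6% and 48.4% of all genes were. Male 4-week library 1 was lower than library 2 of its group for 39 of 52 members (51.4% of all genes), and female 4-week library 1 was lower than its library 2 for 35 (48.8% of all genes). In the 8-week males, library 1 was lower than library 3 for 40 of 52 (48.5% of all genes). Library 2 of that group was lower than library 3 for 39 (48.8% of all genes), and library 1 lower than library 2 for 35 (49.4%). In the 8-week females library 1 was lower than library 2 for 24 (52.6% of all genes) and lower than library 3 for 32 (49.9%). Library 2 of these females was lower than library 3 for 35 (47.4%). Plxna4, a receptor of Sema6a, shows the pattern at 4 weeks: 52.4 against 84.2 CPM in the male and 63.4 against 85.9 CPM in the female libraries. Male 4-week library 1 also had the highest summed muscle level, 2030 CPM, beside 136 CPM in male 8-week library 1. In these same libraries the meningeal fibroblast and collagen matrix genes summed to 2581 and 2310 CPM, and to 1200 to 2120 CPM elsewhere. Pericyte genes summed to 216 and 202 CPM there and to 129 to 173 CPM elsewhere. Endothelial genes, at 179 and 133 CPM, lay within the range of the other libraries, 116 to 196 CPM. The male 4-week pair differed most by counts over all genes, with a chi-square of 11.9 per degree of freedom against 1.98 to 6.48 for the other pairs of a group. The part of these in the pattern was not tested.

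The age result depends on these libraries in its count. Without both 4-week libraries numbered 1, edgeR called 4 members, all lower (Sema4d, Sema6a, Sema5a and Plxnb3), beside 5.53% of all genes. Without both 4-week libraries numbered 2 it called 8, with Sema4d and Sema6a lower and Epha6, Plxna2, Plxna4, Plxnb1, Sema3e and Sema6d higher, beside 16.8% of all genes. Leaving out male 4-week library 2 alone gave 5 of 52, with Plxna2 and Sema6d higher and Plxnd1 lower, beside 9.26% of all genes. Leaving out 1 other library at a time gave 2 or 3, beside 4.62% to 5.69% of all genes. The third was Sema5a without female 4-week library 1, Sema7a without male 8-week library 1 and Plxnd1 without male 8-week library 3. The leaving out of libraries by number was chosen after these values were seen, and every one of these sets includes Sema4d and Sema6a.

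**Figure D4:**
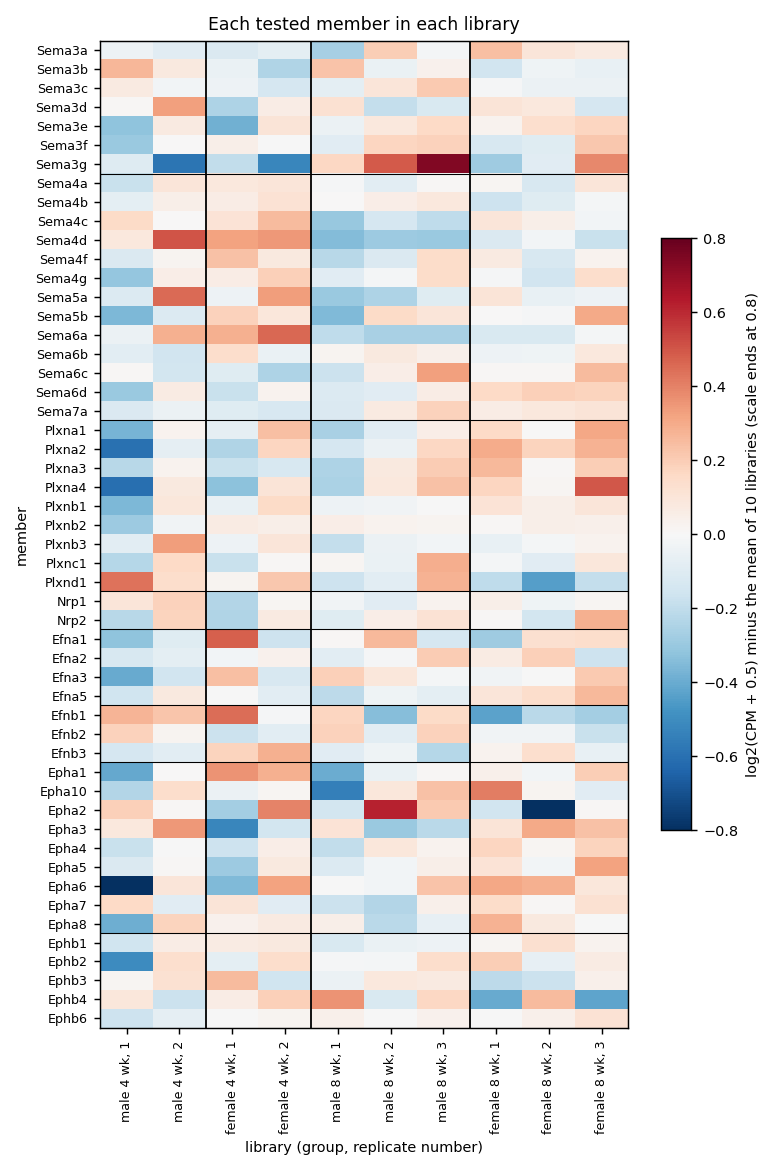
Each tested member (rows, by role) in each library (columns, by group and replicate number), as log2(CPM + 0.5) minus its mean over the 10 libraries, blue below and red above. Male 4-week library 1 and male 8-week library 1 are mostly blue, with 37 of 52 members below their mean, and Sema4d and Sema6a are blue across the 8-week libraries, though near 0 for Sema4d in female library 2 and for Sema6a in female library 3.

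Within the sexes each of the called semaphorins passed once. In males edgeR called 1 of 52 members (1.92%), beside 3.22% of all genes: Sema4d fell by 0.62 (SE 0.10, edgeR adjusted p = 0.00715), while Sema6a stood at −0.37 (SE 0.10, edgeR adjusted p = 0.0669). In females it called 1 of 52 (1.92%), beside 1.45% of all genes: Sema6a fell by 0.46 (SE 0.10, edgeR adjusted p = 0.0395), while Sema4d stood at −0.44 (SE 0.10, edgeR adjusted p = 0.0604). The call of Sema6a in females ended when any 1 of 8 libraries was left out, all but the male 4-week ones, at edgeR adjusted p values up to 0.261. No member passed the test of a difference between the sexes in its age difference, with 0 of 52 called by edgeR beside 0.0129% of all genes and 1 at an unadjusted p under 0.05. That member was Epha3, with 8 to 25 counts per library, at −0.46 in males and 0.69 in females (edgeR adjusted p = 0.970). For Sema4d the male minus female difference was −0.18 and for Sema6a 0.09, so the different calls in the sexes are not a shown difference between them.

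**Figure D5:**
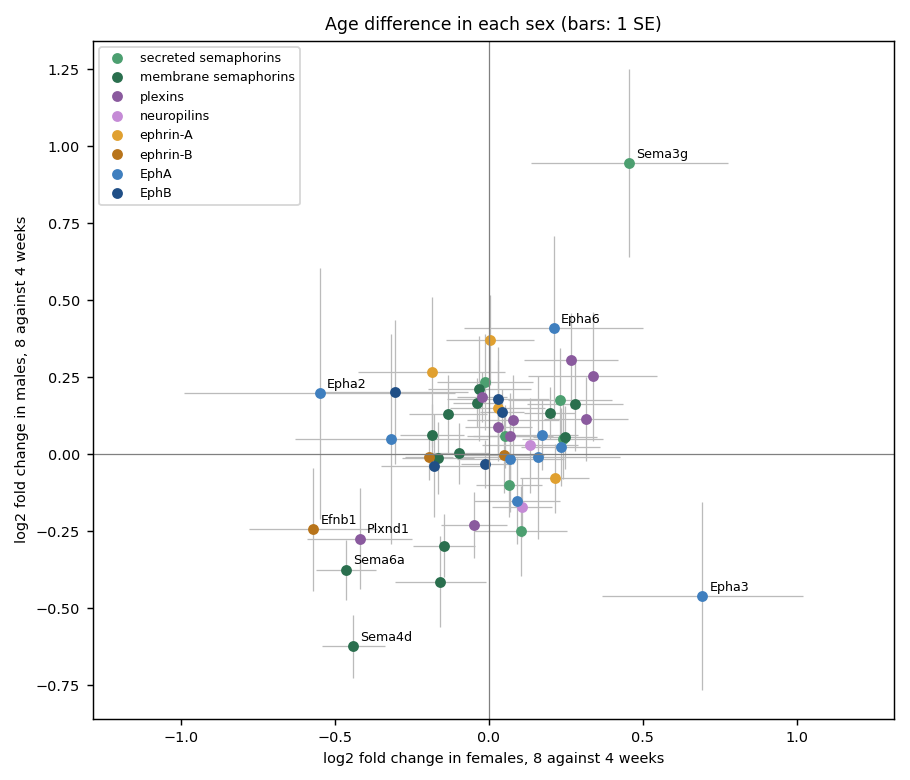
Log2 fold change of 8 against 4 weeks in males (vertical) against females (horizontal) for the 52 tested members, with grey bars of 1 SE and colours for the role. Sema4d and Sema6a lie below 0 in both sexes, Sema3g above 0 in both, and Epha3 at −0.46 in males and 0.69 in females.

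Between the sexes, over both ages, no member passed. EdgeR called 0 of 52, beside 0.0901% of all genes, and DESeq2 and limma-voom called 0 as well. At an unadjusted p under 0.05 there were 9 members, 3 higher and 6 lower in males, which is 17.3% of the members beside 7.36% of all genes. The male minus female difference was positive for 17 of 52, with a median of −0.08 beside 0.00 over all genes. That median was −0.03 without male 4-week library 1, and −0.05 without male 8-week library 1 or without female 4-week library 2. Efnb3 had the lowest p: it was at 360 ± 17.9 CPM in males and 423 ± 38.5 CPM in females (SD, n = 5 each), a difference of −0.23 (SE 0.06, edgeR adjusted p = 0.337). The ranges of the sexes, 332 to 380 and 374 to 474 CPM, overlapped. Sema3b, a secreted semaphorin, was at 49.2 ± 4.60 CPM in males and 42.2 ± 2.50 CPM in females, a difference of 0.22 (SE 0.07, edgeR adjusted p = 0.560). Its ranges, 43.8 to 54.7 CPM in males and 38.4 to 44.3 CPM in females, overlapped. The highest values, 54.7 and 53.3 CPM, were in male 4-week library 1 and male 8-week library 1. The X-linked members had differences of 0.21 (Efnb1), −0.06 (Plxna3) and 0.00 (Plxnb3), none with an adjusted p under 0.7.

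The genes that carry the signals inside the cell were listed apart. Of 34 tested semaphorin partners 1 was higher and 4 were lower at 8 weeks (14.7%, beside 6.62% of all genes), with a median of 0.02. Fyn, a kinase that acts below plexins and in oligodendrocyte maturation, and so also stands in the list of newly forming oligodendrocytes, fell by 0.36 (SE 0.05, edgeR adjusted p = 0.000411). Itgb1, the integrin subunit through which Sema7a acts, fell by 0.32 (SE 0.05, edgeR adjusted p = 0.00228). Rap1a, a small GTPase of the kind that plexins switch off, fell by 0.34 (SE 0.07, edgeR adjusted p = 0.0106), and Cd72, the immune cell receptor of Sema4d, by 1.63 (SE 0.30, edgeR adjusted p = 0.00397). Cd72 is scarce in cord, and 11 of 12 blood and marrow markers were lower at 8 weeks as well, a part that was not tested. Cntn2, an axonal adhesion molecule, was the called gene that rose, by 0.27 (SE 0.06, edgeR adjusted p = 0.0198), and that call was lost at edgeR adjusted p values of 0.0539, 0.0543 and 0.0501 when library 1 of the male 4-week, library 1 of the female 4-week or library 2 of the male 8-week group was left out.

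Of 31 tested Eph and ephrin partners 1 was higher and 2 were lower (9.68%, beside 6.62% of all genes), with a median of 0.06. DESeq2 called 5 of them, with Abl1 and Sipa1l1 added, the replicate block 4, with Abl1 added, and limma-voom the same 3 as edgeR. Ngef, an exchange factor that acts below EphA receptors, rose by 0.31 (SE 0.07, edgeR adjusted p = 0.0118). Inppl1, a lipid phosphatase bound by Eph receptors, fell by 0.49 (SE 0.07, edgeR adjusted p = 0.000847), and Anks1b, a relative of an EphA adaptor, fell by 0.45 (SE 0.05, edgeR adjusted p = 0.000172). The netrin, slit and repulsive guidance genes, a further set of axon guidance cues and receptors, had 0 of 35 called by edgeR, with 12 of 35 at an unadjusted p under 0.05, beside 21.0% of all genes, and a median of 0.14. DESeq2 called 1 of these, Rtn4, edgeR without TMM 1, Ntng1, and limma-voom 0. For sex, 0 genes of the 3 lists were called by edgeR, DESeq2 or limma-voom, with 5, 1 and 4 genes of the 34, 31 and 35 at an unadjusted p under 0.05 in edgeR, beside 7.36% of all genes.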

How the data were processed

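The values are raw read counts per gene, 1 deposited table per library, which the authors made with TopHat2 2.1.0 and featureCounts on mouse build mm9, per the submitters' processing notes. How reads were assigned, by strand or not, is not given in the sources used here, and Plxna4 and its antisense RNA, and other overlapping genes, cannot be told apart where they share reads. Entrez identifiers were named by the RefSeq table of GRCm38.p6 (24191 of 26301 matched). The 2110 without a name stayed in the tests, with 0.956% of the counts or less in each library.

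The test used edgeR 4.0.16 (R 4.3.3), with filterByExpr (minimum count 10, minimum total 15), TMM scaling (factors 0.985 to 1.017), and its quasi-likelihood F test, two-sided, with p adjusted after Benjamini and Hochberg over all 15540 genes and a threshold of 0.05. Age and sex were the terms of 1 additive model (7 residual degrees of freedom), and the contrasts within a sex and the interaction from the 4 group means with 6. DESeq2 1.42.0 and limma-voom (limma 3.58.1), other size factors, filters and designs, a muscle score and the leaving out of libraries were the alternatives. On simulated counts for the age comparison (15404 genes) 88% and 78% of 50 genes raised or lowered 2-fold, and 68% and 64% of those changed 1.5-fold, were recovered. There were 13 false calls among the unchanged genes. The simulated counts hold no pattern shared by genes of a library, so recovery in the real libraries may differ. Replicates differed by more than sampling noise and each library counted as a sample. Values per library are given for members called in any comparison and for the 2 members per role class with the lowest age p, for groups of 6 as range and median. From each list of partners the called genes were named, 4 at most with the lowest p, and Cntn2, the fifth of its list, was added after its values were seen. Members and lists were chosen with earlier results of these data known.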

Additional observations from a re-analysis of the deposited data

Results flagged for a closer look

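For 4 members 1 library stood apart from the others of its age, by the gap to the nearest library relative to the whole range. Of 104 groups tested (52 members at 2 ages) chance alone would mark about 1 in 20.

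Male 4-week library 1 was the lowest for 3 of them. Ephb1, a receptor of B ephrins, stood there at 94.9 CPM, with the other 4-week libraries between 110.6 and 111.6 CPM. Sema4a, a membrane semaphorin, stood at 43.9 CPM, with the others between 52.9 and 53.3 CPM. Sema3f, a secreted ligand of neuropilin-2, stood at 10.03 CPM, with the others between 12.4 and 12.9 CPM. That library had the highest summed skeletal muscle level, 2030 CPM, whose part was not tested. Ephb6, a receptor without kinase activity, was highest in female 8-week library 3 at 74.9 CPM, with the other 8-week libraries between 68.7 and 71.0 CPM.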

How the results depend on the processing

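Over both sexes DESeq2 and limma-voom called the same 2 members as edgeR. Sema4d was called lower under 22 of 23 alternatives and Sema6a under all 23, with differences from −0.75 to −0.41 and from −0.75 to −0.28. The call of Sema4d ended with the muscle score as a covariate, where 1 member was called, as said beside it. The members called for age numbered 2 to 5 when 1 library was left out, beside 4.62% to 9.26% of all genes. They numbered 4 without the 4-week libraries numbered 1 (5.53% of all genes) and 8 without those numbered 2 (16.8%), both chosen after seeing the data. The replicate block gave 3, adding Plxnd1, with a median age difference of the members of 0.02, and no low-count filter gave 3, adding Sema3g. In males the count was 1 to 4 when 1 library was left out and 2 without the filter. In females it was 0 to 2 when 1 library was left out, and 2 without the filter, with the replicate block or with female libraries alone, when Sema4d joined Sema6a. The median age difference was 0.03 without male 8-week libraries 2 and 3 and 0.04 without both male 4-week libraries. The cause of these changes was not tested. For sex and for the interaction the count was 0 under every alternative run.

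Whether equal replicate numbers pair samples is not settled. Over 13 pairs of libraries that share a number, the correlation of deviations lay between −0.23 and 0.26 and was over 0.1 in 5. Pairs with different numbers lay between −0.28 and 0.28. With 2 libraries in each 4-week group their deviations mirror each other, so these correlations are not independent and cannot exclude a pairing. Depth limits the scarce members most, since Sema3g, Epha1, Epha2 and Epha3 held 64 counts or fewer per library.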
